A study of Rattus norvegicus with 4 samples.

Results

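The glycolytic enzymes that follow hexokinase were described through 9 genes, Pfkl, Pfkm, Pfkp, Aldoa, Tpi1, Gapdh, Pgk1, Eno1 and Eno2, which run from phosphofructokinase to enolase. Every non-control probe that the scanner files name after one of these genes was taken, which gave 16 probes of 30367 on the array and 9 genes of 26688. All 16 probes passed the filter on dim signals and were well above background in all 4 IUGR and all 4 control channels. The members were measured in islets of Langerhans isolated from Sprague Dawley rats at postnatal day 14. Intrauterine growth restriction (IUGR) was induced by tying off both uterine arteries of the dam at embryonic day 18, and control offspring came from dams that had sham surgery. There were 4 IUGR and 4 control samples, and 1 of each was hybridised to every one of 4 two-colour arrays that shared a slide. IUGR was in the Cy5 channel of arrays 1 and 2 (IUGR replicates 2 and 1 against control replicates 1 and 2), and in the Cy3 channel of arrays 3 and 4 (IUGR replicates 4 and 3 against control replicates 3 and 4). The labels do not state sex, litters or how many animals made up a sample, so a p-value here measures only the spread between these samples.

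Glycolysis splits glucose into pyruvate, and in the beta cells of the islet its flux couples blood glucose to insulin release. Hexokinases trap glucose as glucose 6-phosphate, phosphofructokinase commits it to glycolysis, aldolase and triosephosphate isomerase yield glyceraldehyde 3-phosphate, and the enzymes from Gapdh to enolase harvest NADH and ATP on the way to phosphoenolpyruvate. The phosphofructokinase genes encode the liver (Pfkl), muscle (Pfkm) and platelet (Pfkp) subunits of a tetramer. Eno1 encodes the enolase found in most tissues and Eno2 the form typical of neurons and endocrine cells.

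None of the 9 genes passed the test in either direction. Limma called 0 members at a Benjamini-Hochberg adjusted p under 0.05, beside 0 of 20159 genes tested (0% called), and the smallest adjusted p of the whole test was 0.340. Before adjustment, 2761 genes (13.7%) had a p under 0.05, among them 1 member above 0 (Aldoa, against 7.11% of all genes) and 2 below 0 (Pfkp and Tpi1, against 6.58%). The values ran both ways: Aldoa, Pfkm, Eno2 and Pgk1 had mean log2 IUGR over control ratios above 0, and Pfkp, Pfkl, Tpi1, Eno1 and Gapdh had means below 0. With each array centred on its median in place of loess, 1 gene (Aldoa) was above 0 and 8 were below 0. The median over the 9 members was -0.12, against 0.01 over all genes tested. Their mean was -0.01 with an SD of 0.08 over the 4 arrays, and 2 members were above 0 and 4 below 0 on all 4 arrays, where 11% and 9.68% of all genes were.

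Probes that lay further upstream in a transcript had higher mean ratios for Gapdh, Eno1 and Eno2, and the probes that differ in this way are printed here because the direction given for Gapdh and Eno1, and the size given for Eno2, turn on which of them is read. Aldoa had a single probe, which also lay upstream, and it is printed beside them. Letters are the 60-base probes in the deposited files, 5′ to 3′. Capitals mark the longest run that the probe shares with a probe under another name, searched for runs of at least 20 bases, and a probe with no capitals shares none.
Aldoa A_44_P258912: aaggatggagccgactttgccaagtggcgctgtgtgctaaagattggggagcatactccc
Gapdh A_64_P232432: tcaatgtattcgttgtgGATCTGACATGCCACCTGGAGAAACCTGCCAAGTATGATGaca
Gapdh A_64_P052510: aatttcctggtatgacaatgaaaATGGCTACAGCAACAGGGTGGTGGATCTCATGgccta
Eno1 A_64_P067525: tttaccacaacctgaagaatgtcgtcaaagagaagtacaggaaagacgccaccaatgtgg
Eno2 A_64_P074008: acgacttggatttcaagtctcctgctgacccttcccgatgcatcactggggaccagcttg

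On rn4, the assembly of the deposited coordinates, the Aldoa probe lay at chr1:185972062-185972121 on the minus strand, starting at base 581 of its transcript. The printed Gapdh probes lay on the minus strand of chromosome 4 at chr4:161282760-161282907 and chr4:161282433-161282601, spans longer than the probes, and started at bases 783 and 1000. The printed Eno2 probe lay at chr4:160893529-160893588 on the minus strand and started at base 769. The printed Eno1 probe started at base 672 of its transcript, and the files place it at chr10:53300221-53300280, whereas the other Eno1 probes lie on chromosome 5. Gapdh A_64_P232432 shared its 40-base run, from base 18 to base 57, with a probe described as another glyceraldehyde-3-phosphate dehydrogenase transcript. Gapdh A_64_P052510 shared runs with 20 probes of other names, 9 of them described as Gapdh-like. Signal from near-identical copies is therefore uncertain for these Gapdh probes, and the placement of the printed Eno1 probe is uncertain.

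Phosphofructokinase subunits did not run the same way. Pfkp, probed at chr17:74822977-74823036 near the 3′ end of its transcript, had normalized log2 levels of 10.79, 10.75, 10.89 and 10.77 in the IUGR samples of arrays 1 to 4, against 10.96, 10.97, 11.38 and 11.14 in the control samples. The groups did not overlap, with all 4 IUGR samples below all 4 control samples. The Pfkp log2 ratio was -0.31 ± 0.08 (moderated limma SE, n = 4 arrays; adjusted p = 0.340), a signal 0.805 times that of the control, and its array ratios of -0.17, -0.22, -0.50 and -0.37 had an SD of 0.15.

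Pfkl, the liver subunit, had levels of 8.62, 8.76, 8.71 and 8.98 in IUGR samples, against 8.70, 9.43, 9.07 and 8.995 in control samples. The groups overlapped, and array 2 held the widest gap, with a ratio of -0.67. The Pfkl ratio averaged -0.28 ± 0.13 (moderated limma SE, n = 4, limma adjusted p = 0.341). The dye-adjusted ratio of the limma model was -0.43 without array 1 and -0.13 without array 2. With an array left out, that ratio gives the lone array of its dye orientation the weight of both others. A second Pfkl probe, 120 bases further upstream, averaged -0.19 with an SD of 0.21 over arrays, and its ratio on array 1 was 0.02.

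Pfkm, the muscle subunit, had levels of 11.13, 11.22, 10.84 and 10.66 in IUGR samples, against 10.95, 10.63, 10.66 and 10.74 in control samples. Its ratio averaged 0.22 ± 0.11 (moderated limma SE, n = 4; adjusted p = 0.345), and array 4 alone was below 0, at -0.08. Without array 2 the dye-adjusted ratio was 0.12. Centring each array on its median, without loess, gave Pfkm a ratio of -0.12. Set against Pfkp within each array, Pfkm was higher in IUGR by 0.35, 0.80, 0.67 and 0.29 on the log2 scale, a mean difference of 0.53 with an SD of 0.25. That difference had the same sign on all 4 arrays, and the exact two-sided sign-flip test gave p = 0.125, the smallest that 4 arrays allow (0.25 after adjustment over 4 isoform differences). The isoform differences were not on the list of planned tests. The difference between Pfkm and Pfkp remained between 0.38 and 0.64 under the alternatives run on it. Both genes have a single probe, so alternatives of probe choice could not move it. Alternatives of filter, no dye term, a replicate block and array weights also left it at 0.53. Pfkm minus Pfkl averaged 0.49 and had the other sign on array 4 (-0.06), and Pfkl minus Pfkp averaged 0.04 with an SD of 0.34.

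**Figure D1:**
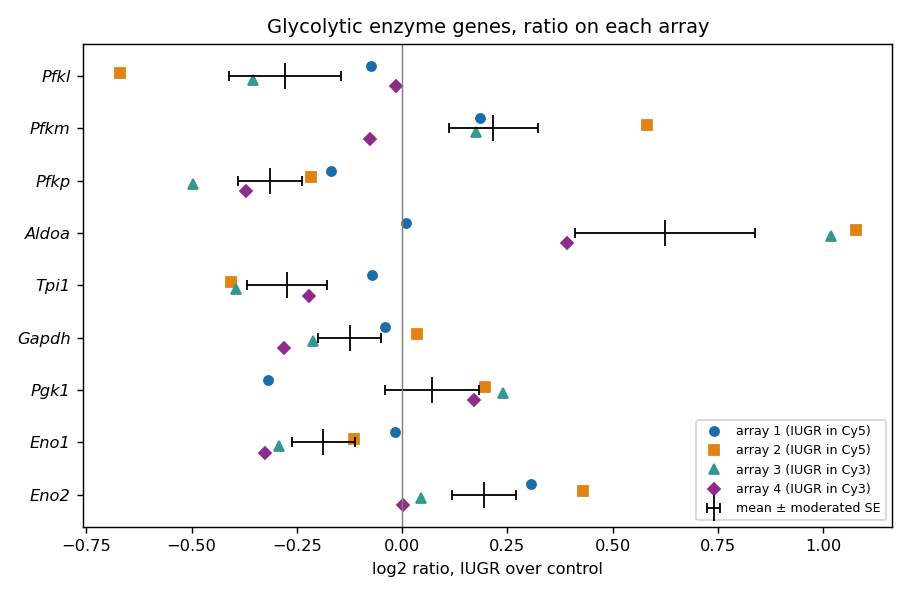
Log2 IUGR over control ratio of each gene (horizontal axis, brightest probe per gene) on each of the 4 arrays, with black bars for the mean and moderated limma SE. Pfkp, Pfkl, Tpi1 and Eno1 lie below 0 on all 4 arrays, Aldoa and Eno2 lie above 0 on all 4 (Eno2 averages -0.16 under median centring), and Pgk1 has 1 array, array 1, far from the other 3.

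Aldoa, the aldolase of muscle and most other tissues, had the mean ratio furthest from 0 among the 9 genes. Its levels were 12.52, 12.48, 12.55 and 12.06 in IUGR samples, against 12.51, 11.40, 11.53 and 11.67 in control samples. The control sample of array 1 alone made the groups overlap, and the other 3 control samples were below all 4 IUGR samples. The array ratios were 0.01, 1.08, 1.02 and 0.39 (SD 0.51), with a mean of 0.62 ± 0.21 (moderated limma SE, n = 4; adjusted p = 0.340), or 54.1% more signal in IUGR. The dye-adjusted ratio was 0.89 without array 1 and 0.36 without array 2. With median centring of all arrays the mean was 0.29. Beside Aldoa, 3 tested probes under other names were described as aldolase A or similar to it, and all 3 had ratios above 0, from 0.27 to 0.42. Of all 20159 genes tested, 10660 were above 0. The 3 probes are not independent replicates, and their medians on arrays 1 to 4 were 0.06, 0.58, 0.33 and 0.22. Aldoc, the aldolase gene found mainly in brain, had a ratio of -0.48 ± 0.12 (moderated limma SE, n = 4; adjusted p = 0.340).

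Tpi1, triosephosphate isomerase, had levels of 12.08, 12.08, 12.15 and 12.14 in IUGR samples, against 12.15, 12.49, 12.55 and 12.36 in control samples. IUGR was below its partner on all 4 arrays, and the IUGR sample of array 3 matched the control sample of array 1 at 2 decimals, so the groups met there. The ratio was -0.27 ± 0.10 (moderated limma SE, n = 4; adjusted p = 0.340), and the array ratios were -0.07, -0.41, -0.39 and -0.22. A second probe 81 bases upstream gave -0.07, -0.45, -0.37 and -0.28, with a mean of -0.29. The 2 tested probes of other names described as similar to Tpi1 had ratios of 0.05 and 0.12, on the other side of 0.

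Gapdh, which oxidises glyceraldehyde 3-phosphate and is often used as a reference gene, had 3 probes that did not give a single direction. The brightest, near the 3′ end at base 1122, had levels of 13.02, 13.22, 13.06 and 13.08 in IUGR samples, against 13.07, 13.19, 13.27 and 13.36 in control samples. The groups overlapped, and its ratio was -0.12 ± 0.08 (moderated limma SE, n = 4; adjusted p = 0.394). The probe at base 1000 averaged -0.001 and the probe at base 783 averaged 0.13, with array ratios of 0.04, 0.45, 0.22 and -0.20. Among 78 tested probes of other names that were described as Gapdh or similar to it, 65 had ratios above 0. Of all 20159 genes tested, 10660 did. The 78 probes, which are not independent replicates, had a median of 0.09 and a range from -0.41 to 0.53. Their medians on arrays 1 to 4 were 0.11, 0.44, 0.03 and -0.22.

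Pgk1, phosphoglycerate kinase, had levels of 13.95, 13.94, 14.11 and 13.95 in IUGR samples, against 14.27, 13.75, 13.87 and 13.78 in control samples. The control sample of array 1 was the highest of the 8, and the other 3 control samples were below every IUGR sample. The array ratios were -0.32, 0.20, 0.24 and 0.17, with a mean of 0.07 ± 0.11 (moderated limma SE, n = 4; adjusted p = 0.724). The dye-adjusted ratio was 0.20 without array 1 and -0.06 without array 2, where array 1 alone stood for IUGR in Cy5. Of 3 tested probes of other names described as similar to Pgk1, 2 had ratios above 0, with a median of 0.12. Among all 20159 genes tested, 10660 were above 0.

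Eno1, at chr5:167405465-167405524 on the plus strand, had the brightest probe of the set, starting at base 1609. Its levels were 15.04, 15.01, 14.90 and 14.86 in IUGR samples, against 15.06, 15.13, 15.20 and 15.19 in control samples. The groups did not overlap, all IUGR samples being lower, but the gap between the nearest samples was small and the ratio was -0.19 ± 0.08 (moderated limma SE, n = 4; adjusted p = 0.340). The other Eno1 probes did not share this: the probe at base 1469 averaged 0.07, and the printed probe at base 672 averaged 0.48, with ratios of 0.23, 0.82, 0.89 and -0.04. A further 2 tested probes of other names, described as similar to Eno1, had ratios of 0.21 and 0.77. In all, 2 of the 9 members, Pfkp and Eno1, had non-overlapping groups with IUGR lower, and 0 had them with IUGR higher, where 1.75% and 1.34% of all genes did (3.09% in either direction).

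Eno2, read at its brightest probe at base 1978, had levels of 11.36, 11.68, 11.23 and 11.38 in IUGR samples, against 11.06, 11.25, 11.18 and 11.38 in control samples. The ratio was 0.20 ± 0.08 (moderated limma SE, n = 4; adjusted p = 0.340), and the pair on array 4 differed by 0.003. With median centring the Eno2 ratio was -0.16. The printed upstream probe had levels of 9.63, 9.63, 9.19 and 8.86 in IUGR samples, against 9.45, 8.29, 8.02 and 8.57 in control samples, and ratios of 0.18, 1.35, 1.17 and 0.29. Set against Eno1 within each array, Eno2 was higher in IUGR by 0.32, 0.54, 0.34 and 0.33, a mean difference of 0.38 with an SD of 0.11. The exact two-sided sign-flip test gave p = 0.125 for this difference, again the smallest possible (0.25 after adjustment over 4 isoform differences). The difference remained between 0.27 and 0.44 under the alternatives run on it. None of them set the Eno1 probe at base 672, which averaged 0.48, against the brightest Eno2 probe, which averaged 0.20.

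**Figure D2:**
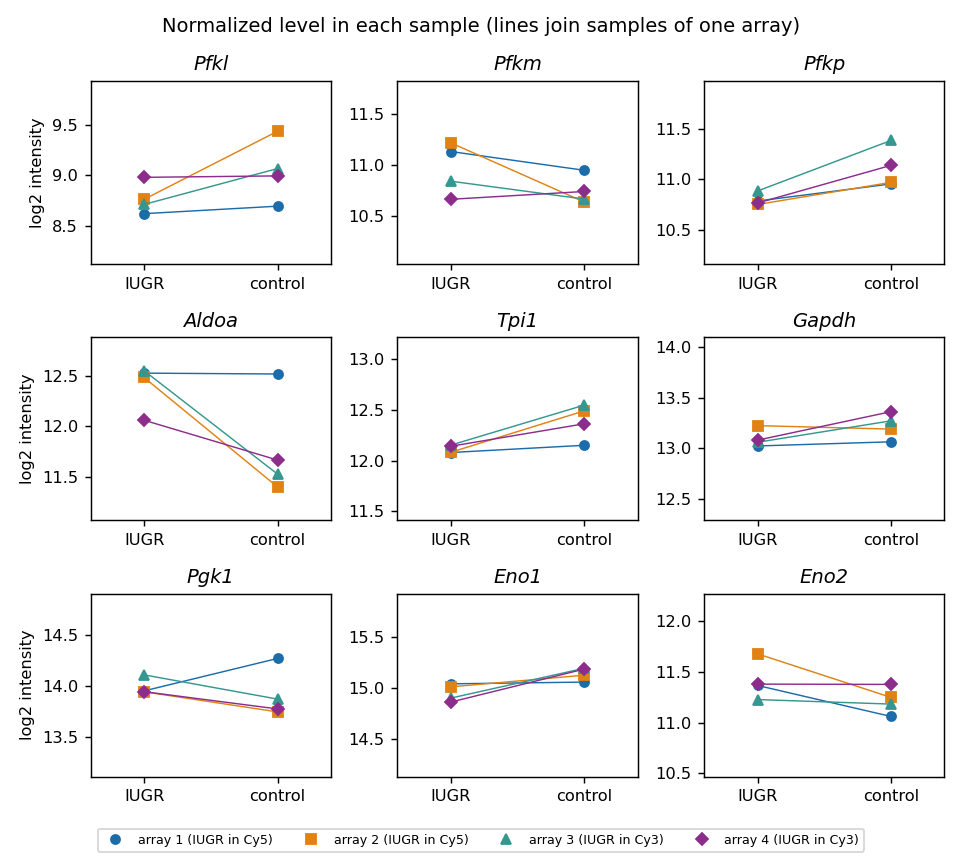
Normalized log2 intensity (vertical axis, 1.8 units high in every panel) of each gene in the 4 IUGR samples at left and the 4 control samples at right, with lines joining the samples of 1 array. The groups separate for Pfkp and Eno1, and for Aldoa the control sample of array 1 stands beside the IUGR samples, at 12.51.

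Within-gene differences by probe position were computed after the values of the 16 probes had been seen. For Eno1, the probe at base 672 exceeded the probe at base 1609 by 0.25, 0.94, 1.18 and 0.28 on arrays 1 to 4, a mean of 0.66 with an SD of 0.47. For Gapdh, the probe at base 783 exceeded the probe at base 1122 by 0.08, 0.42, 0.43 and 0.09, a mean of 0.25 with an SD of 0.20. For Eno2, the difference between the probes at bases 769 and 1978 was -0.12, 0.92, 1.13 and 0.29. Arrays 2 and 3 held the wide gaps in each of these 3 genes. Of 7 probe pairs compared, none could pass an exact two-sided sign-flip test, whose smallest p with 4 arrays is 0.125, and 3 pairs reached it. Pairs whose probes lay close together ran from -0.02 in Tpi1 (81 bases apart) and 0.09 in Pfkl (120 bases apart) to 0.12 in Gapdh (bases 1000 and 1122) and 0.26 in Eno1 (bases 1469 and 1609), the Eno1 pair being above 0 on all 4 arrays. The base numbers of the Eno1 and Eno2 probes are counted on different transcript records, so only the Gapdh, Pfkl and Tpi1 pairs lie on 1 record.

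**Figure D3:**
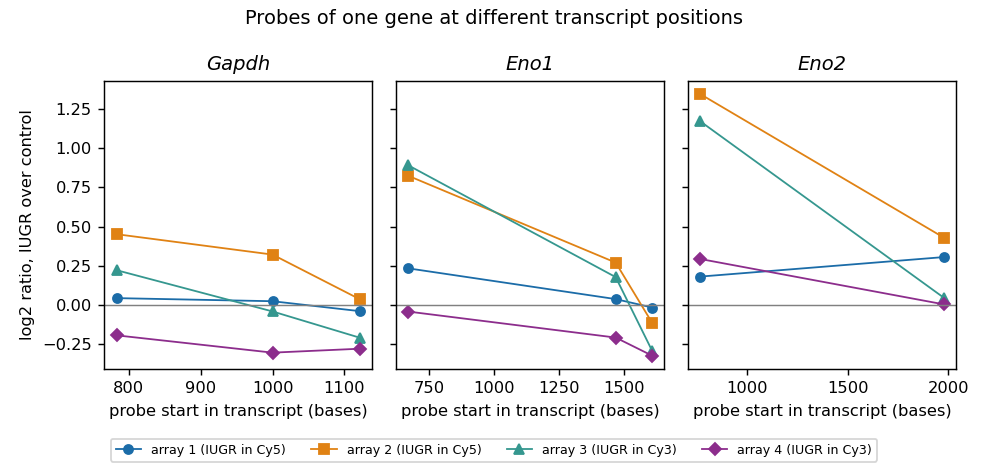
Log2 IUGR over control ratio (vertical axis) against the first base of the probe in its transcript (horizontal axis, bases) for the probes of Gapdh, Eno1 and Eno2, with 1 line per array. On arrays 2 and 3 the line drops steeply toward the 3′ end, by 0.92 and 1.13 in Eno2.

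Upstream and downstream probes were also compared across the array, on pairs that share 1 transcript record. Among 2144 genes with at least 2 probes on 1 transcript that started 60 or more bases apart, the upstream ratio exceeded the downstream one by a median of 0.03, 0.17, 0.20 and 0.02 on arrays 1 to 4. For 937 genes with probes 1200 or more bases apart, the median of the mean differences was 0.21 and 77.7% were above 0. For 381 genes with probes 60 or more but fewer than 300 bases apart, that median was -0.04 and 39.9% were above 0. Limma called 0 of these 2144 differences. Aldoa, with a single probe at base 581, allowed no such comparison, and its highest ratios, 1.08 and 1.02, were on arrays 2 and 3. Probe position moved with the ratios of Gapdh, Eno1 and Eno2, and its part in the result was not tested.

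**Figure D4:**
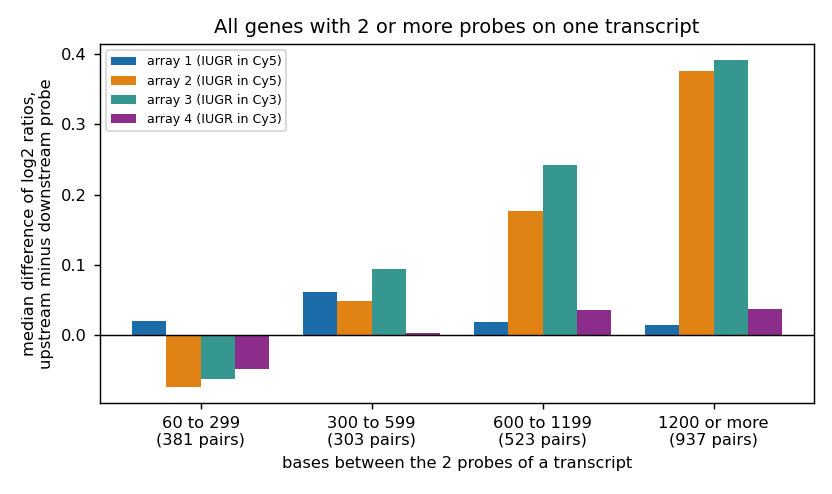
Median difference of log2 IUGR over control ratios, upstream minus downstream probe of 1 transcript (vertical axis), by the distance between the probes (horizontal axis, bases) over 2144 genes, with 1 bar per array. On arrays 2 and 3 the bars grow with distance, and on arrays 1 and 4 they stay below 0.1.

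Channel brightness and cell type markers also differed between arrays. Before normalization the median log2 IUGR over control ratio was 1.62, -1.34, -2.25 and -1.43 on arrays 1 to 4, so the IUGR channel was the brighter one on array 1 only. Median signals were between 105 and 344 intensity units in IUGR channels, against 107 and 823 in control channels. Across genes, which are not independent replicates, normalized ratios correlated at r = 0.63 for arrays 2 and 3, 0.63 for arrays 3 and 4 and 0.37 for arrays 2 and 4, and those of array 1 with arrays 2, 3 and 4 at 0.13, -0.23 and -0.30. All 7 islet endocrine markers, among them Ins1, Ins2, Gcg and Sst, were above the 97th percentile of level in every sample, and so were 3 of 5 acinar markers (Prss1, Cpa1 and Cel) and 2 of 3 red cell markers (Hbb and Hba-a2). The other acinar markers lay between percentiles 79.2 and 94.8 (Cela1) and 72.9 and 96.3 (Pnlip), and the red cell marker Alas2 between 60.3 and 79.6. In bulk samples, fewer cells of a type and less RNA per cell cannot be told apart. The 7 endocrine markers averaged 0.70, 0.60, -0.60 and -0.63 on arrays 1 to 4, against -0.02, 0.10, -0.03 and -0.08 for the 9 glycolytic genes. Ins1, Ins2, Iapp and Gcg were above 0 on both arrays with IUGR in Cy5 and below 0 on both others. Ppy, Chga and Sst did not follow this. Ppy was at -0.002 on array 2, Chga had -0.03, -0.30, -0.008 and 0.17, and Sst was below 0 on all 4. The 5 acinar markers tested averaged 0.53, -0.02, 1.95 and -0.36, the 3 red cell markers -0.24, 0.34, 1.11 and 0.89, and the 4 leukocyte markers 0.08, -0.36, -1.60 and -0.77. The 3 muscle markers averaged -0.73, -0.30, 0.11 and -0.45, the 5 neuronal and glial markers -0.41, 0.08, -0.38 and -0.02, and the 3 endothelial markers -0.47, -0.06, 0.58 and 0.42. Some of these sets were mixed. Over the 4 arrays Cd68 averaged 0.23, whereas the leukocyte markers Ptprc, Cd3d and Cd79b averaged -0.79, -1.04 and -1.05. The endothelial markers Cdh5, Pecam1 and Vwf averaged 0.64, 0.01 and -0.31, and the neuronal and glial markers ran from -0.66 (Mbp) to 0.22 (Tubb3). The part of these markers and of brightness in the glycolytic ratios was not tested.

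Genes that flank the 9 enzymes in glucose metabolism were read from a list of 50, of which 46 were tested. Limma called 0 of them, and before adjustment 4 above 0 and 6 below 0 had a p under 0.05, where 7.11% and 6.58% of all genes did. At glucose entry, Slc2a2, the main glucose transporter of rodent beta cells, had a ratio of 0.32 ± 0.09, and Hk1, a hexokinase with high affinity for glucose, had -0.36 ± 0.09 (moderated limma SE, n = 4; adjusted p = 0.340 for both). The isomerase Gpi had -0.03 ± 0.08 (adjusted p = 0.839). Downstream, the pyruvate kinase gene Pkm, listed under its older symbol Pkm2, had 0.11 ± 0.13 (adjusted p = 0.616), and averaging all its probes gave 0.39. Ldha, the lactate dehydrogenase subunit that beta cells normally keep low, had ratios of -0.12, -0.36, -0.45 and -0.45 and a mean of -0.35 ± 0.08 (adjusted p = 0.340).

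Of the genes that control or bypass the phosphofructokinase step, Pfkfb3, which makes the phosphofructokinase activator fructose 2,6-bisphosphate, had 0.25 ± 0.09. Fbp1, the gluconeogenic enzyme that reverses the step, had -0.62 ± 0.19 (limma adjusted p = 0.340 for both). Without array 3 the dye-adjusted ratio of Fbp1 was -0.40. In the shuttles that move reducing equivalents into mitochondria, the aminotransferase Got2 had 0.42 ± 0.16 and the glycerol phosphate enzyme Gpd1 had -0.28 ± 0.12. Without array 2 their dye-adjusted ratios were 0.25 and -0.15. At pyruvate entry, pyruvate carboxylase (Pc), which is abundant in beta cells, had 0.24 ± 0.09 and the mitochondrial pyruvate carrier gene Mpc2, listed as Brp44, had -0.19 ± 0.08. The median ratio was -0.03 for 7 genes of glucose entry, -0.08 for 10 other enzymes down to lactate, -0.02 for 6 genes of fructose 2,6-bisphosphate and reverse flux, 0.14 for 9 shuttle genes and -0.003 for 14 genes of pyruvate entry, beside -0.12 for the 9 glycolytic genes and 0.01 for all genes tested. Under median centring the ratios of Slc2a2, Pkm and Pc lay below 0, at -0.060, -0.25 and -0.095, and Mpc2 lay above 0 with Agilent's processed signals, at 0.012.

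**Figure D5:**
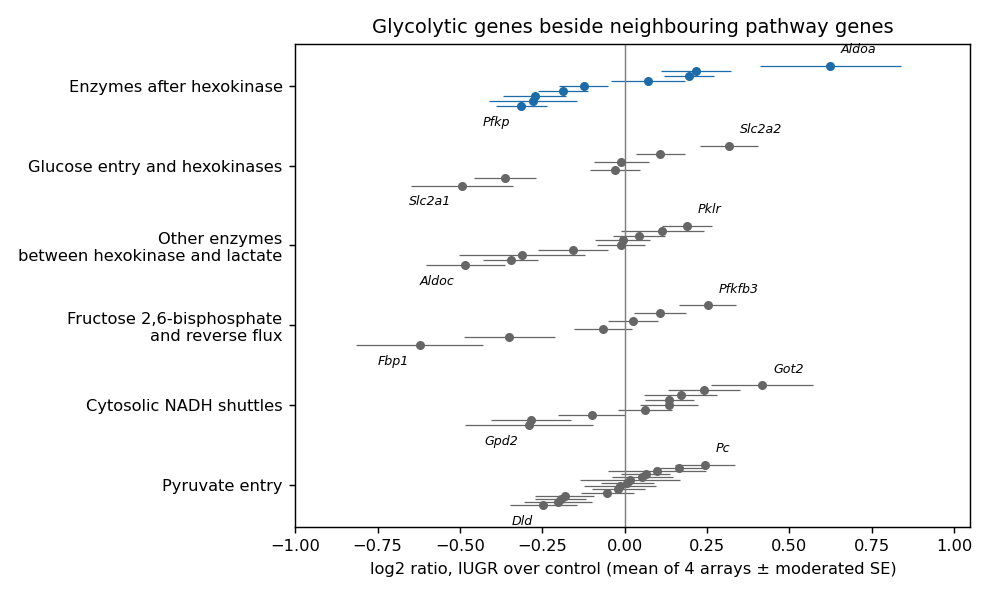
Mean log2 IUGR over control ratio with its moderated limma SE (horizontal axis) for the 9 enzyme genes (blue) and 44 neighbouring genes (grey) by role, with the lowest and highest plotted gene of each role named. The 9 enzyme genes span -0.31 for Pfkp to 0.62 for Aldoa, and genes lie on both sides of 0 in every role.

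The mean log2 level of the 9 genes was nearly flat over the samples, at 12.06, 12.13, 12.05 and 11.99 in IUGR samples and 12.08, 12.03, 12.08 and 12.07 in control samples. Of 13047 other genes with a symbol, those whose levels followed this mean most closely over the 8 samples were Kif18b (Pearson r = 0.97), Zfp748 (0.95), Rfc3 (0.89), Map3k7ip1 (0.89) and Mbnl1 (0.89). Of the 13047 genes, 2 had an r above 0.9, and whether that exceeds chance over 8 samples was not tested. These samples share arrays in pairs, and the values describe likeness of level only.

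Promoters were read for letters bound by hypoxia-inducible factors, which are known to drive glycolytic genes, and for the E-box. RefSeq windows on GRCr8, from 250 bases before to 50 after the gene start, were matched for 8 of the 9 genes (11 promoters). On either strand, ACGTG was found in 5 of the 11 promoters (of Aldoa, Pfkm, Gapdh, Eno1 and Eno2), beside 19.3% of 33469 promoters of that length. GCGTG was found in 5 of the 11 (of Pfkl, Pfkp, Gapdh and Eno1), beside 29.7%, and CACGTG, which contains ACGTG, in 0, beside 6.4%. Aldoa and Eno1 had several windows each, so the 11 promoters are not separate genes. Each motif contains CG, which occurred from 4 times (an Aldoa window) to 31 times (Eno2). Shares among promoters alike in CG were not computed. The genes with ACGTG had ratios on both sides of 0 at their brightest probes, from -0.19 for Eno1 to 0.62 for Aldoa. The other Eno1 probes averaged 0.07 and 0.48. A part of these letters in the ratios was not tested.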

How the data were processed

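Per the file headers, arrays of design 28282 were extracted by protocol GE2_1010_Sep10 of Agilent Feature Extraction (version 10.10.1.1), and probes are placed on rn4. The deposited scanner files hold mean, background and processed signals as intensity, and a deposited log10 ratio of processed Cy5 over Cy3 signals. The authors' deposited value table gives each spot a log2 ratio. Set against the scanner values, it ran as Cy5 over Cy3 with medians from -0.028 to 0.008 and correlated with loess ratios without background subtraction at r from 0.988 to 0.998. Its exact normalization is not given in the sources used here. The submitters' processing notes name limma.

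Processing used limma 3.58.1 in R 4.3.3. Background was corrected by normexp (offset 50), and ratios were loess-normalized within arrays with control spots at weight 0 and turned to IUGR over control. Feature-outlier spots were left out, and 222, 44, 145 and 52 spots with outlying background were assigned their channel's median background on that array; none was a member's. Spots were averaged per probe, and the brightest probe stood for a gene. Genes measured on all 4 arrays and well above background in at least 2 of 4 channels of either group were tested, 20159 in all. The limma model held a dye term (2 residual and 2.75 prior degrees of freedom), and p-values were adjusted by Benjamini-Hochberg over all genes tested. The SE is the moderated SE of that model, with the dye difference taken out. Sample levels come from quantile normalization of average intensities between arrays. Precision is limited by the number of arrays, 4. The limma test was first tested on simulated data.

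The members and lists were chosen with earlier results of these data known. Named were all members, the 2 neighbouring genes of smallest p per role, Gpi, Pkm, Ldha and Slc2a2, and the 5 genes most like the members' mean. Results for 2 listed genes are not reported here. Labels share replicate numbers between groups, and the deviations of same-numbered samples correlated at -0.05, -0.29, 0.09 and -0.17. Same-numbered samples lay on different arrays, so these values cannot settle whether the numbers pair samples. The main model did not pair them. Alternatives covered background, normalization, filters, dye, probes per gene, brightness and leaving out each array.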

Additional observations from a re-analysis of the deposited data

Results flagged for a closer look

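Pgk1 on array 1 stood apart from the other arrays. Its log2 IUGR over control ratio of -0.32 there lay below 0.20, 0.24 and 0.17 on arrays 2 to 4, and the gap to the nearest of these was 0.876 of the whole range, above the 95% critical value of Dixon's test for 4 samples. Chance alone gives such a gap in about 1 of 20 groups, and 17 sets of array ratios were examined.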

How the results depend on the processing

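None of the 9 glycolytic genes was called under any of the 21 alternatives run on each, and Pfkl, Pfkp, Aldoa and Tpi1 kept their direction in all of them. Pfkm, Pfkp, Aldoa and Pgk1 have a single probe, so alternatives of probe choice could not turn them. Alternatives of filter, no dye term, a replicate block and array weights left the ratio of each of the 9 genes unchanged and altered only its p-values. Centring arrays on their median, without loess, called 15 genes of the array, all lower in IUGR, gave the 9 genes a mean ratio of -0.35, put 8 of them below 0 and turned Pfkm (-0.12), Pgk1 (-0.30), Eno2 (-0.16), Pc (-0.095), Pkm2 (-0.25) and Slc2a2 (-0.060) below 0. Averaging all probes of a gene gave the 9 genes a mean of 0.075 and turned Gapdh (0.0015) and Eno1 (0.12). Taking the most upstream probe, added after seeing the data, gave a mean of 0.16 and turned Gapdh (0.13) and Eno1 (0.48); the most downstream probe, also added, turned Brp44 (0.016), as Agilent processed signals did (0.012). Channel brightness as a covariate beside the dye term, added later, called 7 genes, all lower, and turned Pgk1 (-0.071) and Pkm2 (-0.062); in place of the dye term it turned Pgk1 (-0.058). Leaving out 1 array turned the dye-adjusted ratios of Pgk1 and Pkm2 only where it was array 2 (IUGR replicate 1). Array 1, flagged for Pgk1, then weighed as much as arrays 3 and 4 together. The ranges were -0.058 to 0.20 for Pgk1 and -0.040 to 0.27 for Pkm2. Leaving out each array in turn gave 0 calls each time and a members' mean dye-adjusted ratio from -0.04 to 0.02. Without arrays 1 to 4 in turn, 6231, 935, 467 and 2140 genes had an unadjusted limma p under 0.05. The replicate block in place of the dye term called 0 genes, with 1 member and 2885 genes at an unadjusted p under 0.05. The causes of these changes were not tested. No spot was saturated (0), and all 16 probes were well above background in every channel.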
